A study of Mus musculus with 23 samples.

Results

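Nap1l5, Herc3 and Inpp5f, 3 of the 26183 gene symbols in the deposited tables, were followed in 23 mouse embryos. They were chosen by name. Nap1l5 is an imprinted gene that lies inside an intron of its host gene Herc3, and the Inpp5f row also counts an imprinted transcript that starts inside Inpp5f. RNA of whole 129/DBA hybrid embryos at E13.5 (days of gestation) was sequenced, with 1 library per embryo. The 3 genotypes were M+Z+ (Zfp57 in the oocyte and in the embryo), M-Z+ (none from the oocyte and a functional copy from the father) and M-Z- (none from either), in 6, 3 and 4 female and 4, 3 and 3 male embryos. The mothers of M-Z+ and M-Z- embryos were Zfp57-/- 129S6/SvEvTac mice. Their mates carried 1 deleted allele (Zfp57+/-) on a background backcrossed to DBA/2J. The labels write Zfp57-/+ for M+Z+ as well as for M-Z+ embryos and Zfp57-/- for M-Z- embryos, so the M+Z+ controls may also carry a deleted allele. Litters and mothers were not given for single embryos, so p-values measure the spread between embryos that may share a litter.

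ZFP57 is a zinc finger protein that binds a methylated hexamer at imprinting control regions and keeps the DNA methylation of the imprinted parental copy. At genes such as Nap1l5 and the internal transcript of Inpp5f, the maternal copy is normally methylated at the start site and silent, and the paternal copy is transcribed. Such transcripts sit inside a host gene that has a start site of its own. NAP1L5 belongs to the nucleosome assembly protein family, HERC3 is a ubiquitin ligase with a HECT domain, and INPP5F (also called SAC2) is a phosphatase of phosphoinositides on endosomes.

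The deposited coordinates (mm9) placed Nap1l5 at chr6:58855227-58857120 on the minus strand as 1 exon of 1894 bases. Herc3 was at chr6:58781459-58870390 on the plus strand, with 28 distinct exons of 6170 bases in all. Nap1l5 lies in a gap between listed Herc3 exons, chr6:58854076-58866405, with 25 exons before it and 3 after it, and 0 Herc3 exons overlap Nap1l5. The last exon before the gap is listed in 1 transcript, and the 3 exons after it in 2. In at least 1 transcript the intron that holds Nap1l5 thus starts earlier than this gap. Inpp5f was at chr7:135754879-135839950 on the plus strand, with 21 distinct exons of 5117 bases. In its exon list, 15 exons (2116 bases, 41.4% of the row) belong to the full transcript alone and 5 exons (2624 bases, 51.3%) to both transcripts. An exon of 377 bases (7.4%), listed at chr7:135832384-135832760 and read as the first exon of the internal transcript, lies 77505 bases after the Inpp5f start. The Inpp5f row is thus the sum of the full and the internal transcript, and its reads were not separated. Total counts were made by strand. Tsix, which runs antisense over 1959 of its 4306 exon bases through Xist exons, had at most 0.445% of the Xist count in any female. The shared bases are 10.9% of the 17918 Xist exon bases, so most of Xist could not give reads to Tsix. The share of antisense reads kept in a row may therefore be larger than this percentage. Where allele reads are concerned, the strand setting was not given in the sources used here.

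**Figure D1:**
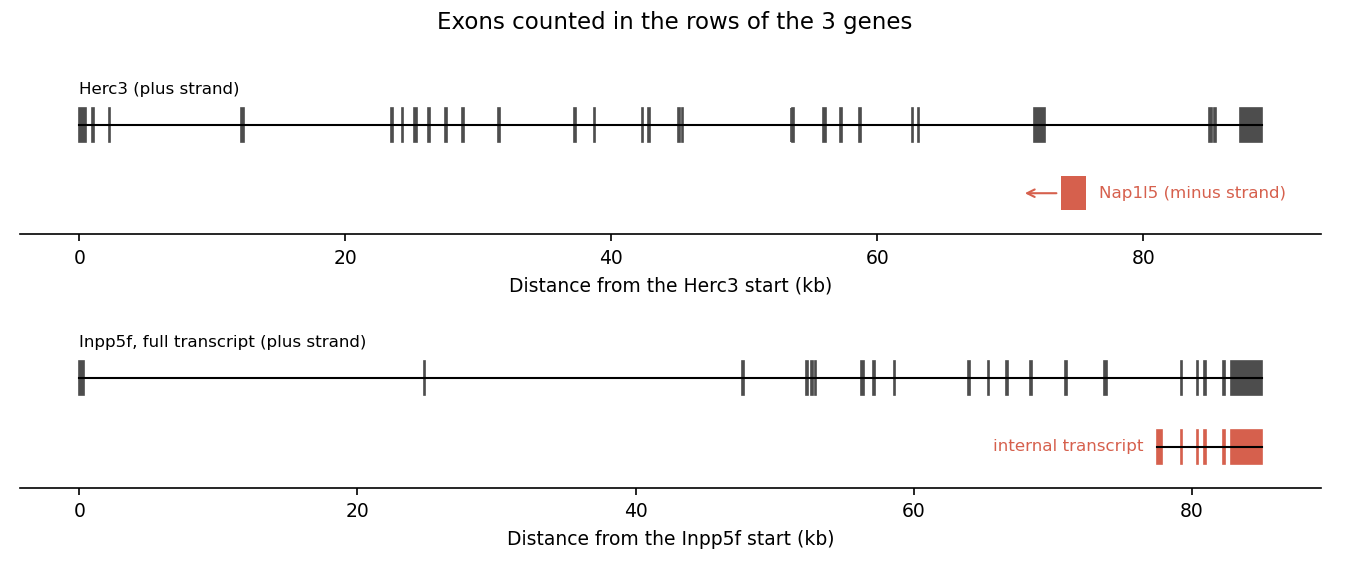
Exons of Herc3 with Nap1l5 (above) and of Inpp5f with its internal transcript (below), drawn to scale against the distance in kb from the start of each host gene. The arrow gives the direction in which Nap1l5 is read. Nap1l5 sits between exons of Herc3, whereas the internal transcript of Inpp5f shares its last 5 exons with the full transcript.

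The start sites are shown because ZFP57 is known to bind TGCCGC, which was searched on both strands of the mm9 genome (GCGGCA on the other strand). Each sequence is read 5′ to 3′ along the gene, and capitals mark the hexamer on either strand. For Nap1l5 (chr6:58857121-58857370, minus strand) and Inpp5f (chr7:135754629-135754878, plus strand) the 250 bases before the start are given. For the internal transcript of Inpp5f, 300 bases that end 641 bases before its start are given (chr7:135831444-135831743, plus strand), a stretch chosen because it holds 3 hexamers.
Nap1l5: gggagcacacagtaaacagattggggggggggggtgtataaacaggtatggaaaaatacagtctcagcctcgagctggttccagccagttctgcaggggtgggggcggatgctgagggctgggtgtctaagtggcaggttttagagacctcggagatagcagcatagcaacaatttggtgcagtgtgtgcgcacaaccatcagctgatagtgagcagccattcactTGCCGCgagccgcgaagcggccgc
Inpp5f: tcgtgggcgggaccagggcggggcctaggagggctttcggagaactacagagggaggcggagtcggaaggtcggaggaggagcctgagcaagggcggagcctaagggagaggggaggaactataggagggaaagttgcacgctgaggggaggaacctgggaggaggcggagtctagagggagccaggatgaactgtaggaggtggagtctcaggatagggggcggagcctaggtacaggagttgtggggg
Inpp5f internal transcript: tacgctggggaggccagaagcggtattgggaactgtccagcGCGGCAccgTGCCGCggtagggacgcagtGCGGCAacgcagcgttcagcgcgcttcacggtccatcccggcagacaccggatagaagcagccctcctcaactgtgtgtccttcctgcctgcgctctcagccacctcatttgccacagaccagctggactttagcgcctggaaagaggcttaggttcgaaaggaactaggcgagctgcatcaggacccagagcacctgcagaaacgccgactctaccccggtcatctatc

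Both imprinted starts lay close to several hexamers. Within 1000 bases on each side of the start, Nap1l5 had 5 hexamers, at 24 bases before and at 27, 124, 239 and 257 bases after the start. The internal Inpp5f start had 6, all of them before it, at 899, 890, 870, 611, 453 and 371 bases. The full Inpp5f start had 0. Of 25986 gene starts with such a window, 42.3% had at least 1 hexamer, 1.18% had 5 or more and 0.458% had 6 or more. In the narrower window of 300 bases (250 before the start), Nap1l5 had 2 and both Inpp5f starts had 0, against 13.49% of starts with any. CpG dinucleotides in that window numbered 17 at Nap1l5, 15 at the full and 6 at the internal Inpp5f start, against a median of 11. The letters alone do not show binding or methylation.

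Total counts per embryo were 15.2 to 24.1 M reads (median 17.4 M), and 2.46 to 3.94 M reads (median 2.78 M) were assigned to an allele. Zfp57 itself, the deleted gene, went from 66.9 ± 17.04 (SD, n = 6) to 33.1 ± 0.856 counts-per-million (CPM, n = 4) between M+Z+ and M-Z- females. In males it went from 76.5 ± 9.90 (n = 4) to 29.7 ± 5.03 CPM (n = 3). The log2 fold change was -1.02 (edgeR adjusted p = 0.000399) in females and -1.33 (adjusted p = 4.69e-05) in males. M-Z+ embryos had 71.4 ± 6.27 CPM in females and 70.7 ± 3.78 CPM in males (n = 3 each). Zfp57 was thus lower in the embryos labelled M-Z-, though reads remained over the gene there, and M-Z+ against M+Z+ was not called (adjusted p = 0.926 in females, 0.772 in males). No list of neuron, neural progenitor, liver, muscle, erythroid or cartilage markers had a gene at 0 counts in any group.

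Nap1l5 was higher in M-Z- embryos of both sexes, and Herc3 around it was not called. In M+Z+ females Nap1l5 ranged from 16.3 to 24.2 CPM, with a median of 20.2. The M-Z+ females were at 16.8, 18.6 and 19.9 CPM, inside that range, and the M-Z- females were at 33.5, 26.5, 39.4 and 37.9 CPM, all above it. The M+Z+ males were at 19.9, 20.8, 23.0 and 18.7 CPM. The M-Z+ males were at 18.9, 18.8 and 19.2 CPM and the M-Z- males at 35.0, 48.4 and 39.1 CPM, again above every M+Z+ and M-Z+ male. Raw counts behind these values were 285 to 792 per embryo.

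Between M-Z- and M+Z+ embryos the log2 fold change of Nap1l5 was 0.75 ± 0.108 (SE) in females, a 1.68-fold rise (edgeR adjusted p = 0.000984, higher in 4 of 4 embryos). It was 1.03 ± 0.124 in males, a 2.05-fold rise (adjusted p = 0.000906, higher in 3 of 3 embryos). Calls required an adjusted p below 0.05 together with a log2 change whose size reached 0.5. That rule was met by 0.563% of all tested genes in females and by 0.39% in males. Over all tested genes, 0.285% were called higher in females and 0.264% in males, and the groups did not overlap, with M-Z- higher, for 2.24% and 4.41%. The male value stands for 44 genes called higher and moved with single embryos, to 410 without M-Z- replicate 3, 114 without M+Z+ replicate 4, 70 without M-Z- replicate 1 and 26 to 29 without M+Z+ replicate 1, M+Z+ replicate 2 or M-Z+ replicate 3. With only the M+Z+ embryos numbered 4 and above, an alternative chosen after seeing the data that leaves 1 control male, the male change was 1.19 and lost its call (adjusted p = 0.324).

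Inpp5f also rose in M-Z- embryos of both sexes, with a smaller spread relative to its level. In M+Z+ females it ranged from 91.5 to 98.2 CPM, with a median of 95.3. The M-Z+ females were at 93.0, 101.4 and 99.3 CPM, and the M-Z- females were at 168, 158, 170.4 and 162 CPM. The M+Z+ males were at 94.1, 94.8, 93.4 and 89.5 CPM, close to the M-Z+ males at 97.5, 93.0 and 91.2 CPM. The M-Z- males were at 149.8, 163.6 and 165.7 CPM, with no overlap with either other genotype. The log2 fold change between M-Z- and M+Z+ was 0.79 ± 0.0397 (SE) in females, or 1.73-fold (adjusted p = 2.00e-09), and 0.82 ± 0.0671 in males, or 1.77-fold (adjusted p = 4.69e-05). Raw counts were 1409 to 3435 per embryo. With the same single M+Z+ male, the male change of 0.90 was not called (adjusted p = 0.101).

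Herc3 showed no call in any comparison. Its row sums transcripts with and without the exons after Nap1l5, and their reads were not separated. Its M+Z+ females ranged from 22.3 to 26.5 CPM, with a median of 24.5, and the M-Z+ females were at 26.8, 24.6 and 25.02 CPM. In M-Z- females the values were 20.8, 20.7, 23.7 and 19.6 CPM, which overlapped the M+Z+ females through 1 embryo. Males were at 21.0, 22.8, 24.9 and 26.3 CPM in M+Z+, at 23.1, 22.8 and 23.7 CPM in M-Z+ and at 21.2, 20.1 and 21.7 CPM in M-Z- embryos. Male M-Z- values overlapped those of M+Z+ and lay below all 3 M-Z+ males. The log2 fold change between M-Z- and M+Z+ was -0.20 ± 0.0640 (SE, adjusted p = 0.133) in females and -0.13 ± 0.0885 (adjusted p = 0.457) in males. Nap1l5, which lies inside Herc3, was called higher in the same embryos. Whether the changes of Nap1l5 and Herc3 differ was not tested.

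**Figure D2:**
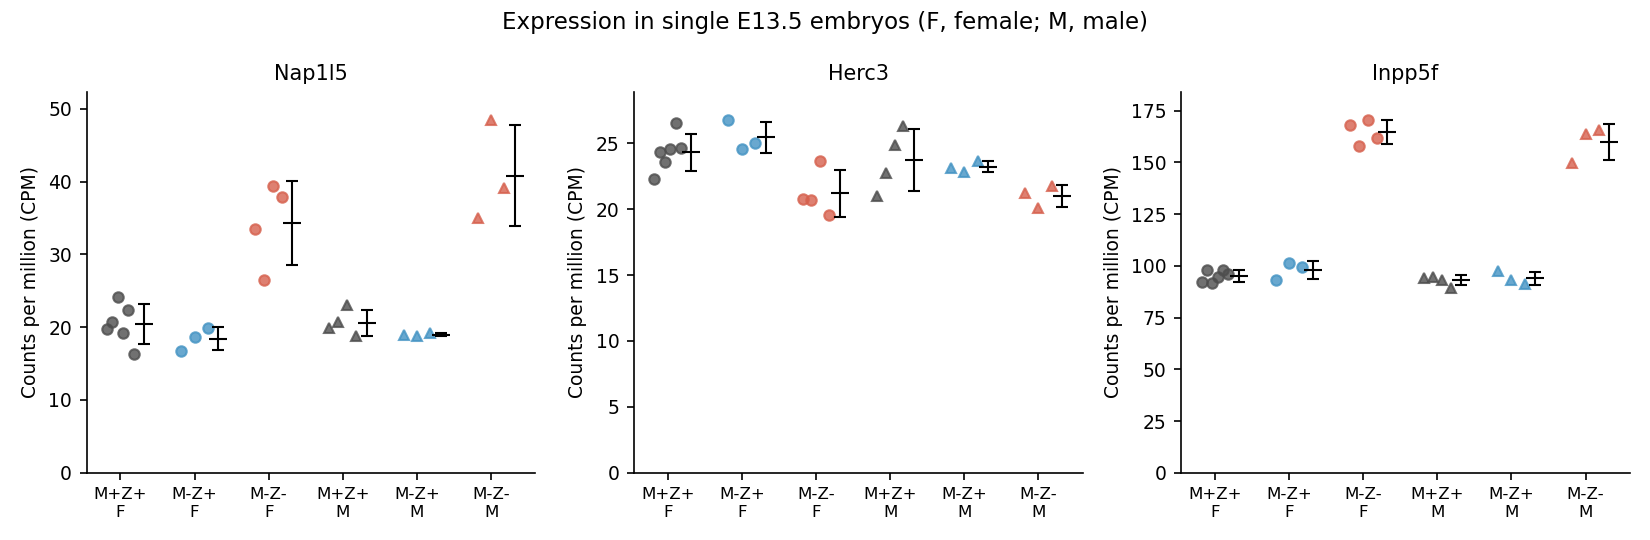
Counts-per-million (CPM) of Nap1l5, Herc3 and Inpp5f in each embryo, by genotype and sex (F, female, circles; M, male, triangles), with the mean and SD beside the points. Nap1l5 and Inpp5f separate M-Z- embryos (Nap1l5 26.5 to 48.4 CPM, Inpp5f 149.8 to 170.4 CPM) from the other genotypes, and Herc3 (19.6 to 26.8 CPM over all embryos) does not.

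Maternal loss of Zfp57 alone went with no call at the 3 genes. Between M-Z+ and M+Z+ embryos the log2 fold change of Nap1l5 was -0.16 ± 0.126 (SE) in female embryos (adjusted p = 0.803) and -0.14 ± 0.130 in male embryos (adjusted p = 0.821). For Inpp5f it was 0.03 ± 0.0446 (adjusted p = 0.908) and -0.01 ± 0.0682 (adjusted p = 0.989), and for Herc3 0.05 ± 0.0692 (adjusted p = 0.890) and -0.05 ± 0.0881 (adjusted p = 0.920). In that comparison edgeR called 0.0593% of all tested genes in females and 0.048% in males. Those were 10 and 8 genes, and single embryos left out gave 5 to 12 in females and 0 to 54 in males, with 54 without M+Z+ replicate 4.

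Against M-Z+ embryos, which differ from M-Z- embryos in the zygotic copy, the rises were of like size. Nap1l5 changed by 0.91 ± 0.133 (SE) in female embryos (adjusted p = 0.00194) and by 1.17 ± 0.137 in male embryos (adjusted p = 0.00111). For Inpp5f the changes were 0.76 ± 0.0483 (adjusted p = 6.28e-08) and 0.83 ± 0.0729 (adjusted p = 0.000157). Herc3 changed by -0.26 ± 0.0750 (adjusted p = 0.255) and -0.08 ± 0.0950 (adjusted p = 0.802), neither of them called, although in both sexes every M-Z- embryo lay below every M-Z+ embryo. That held for 5.86% of tested genes in females and 8.74% in males. The share of tested genes called higher was 0.124% in females and 0.084% in males, and the groups did not overlap, with M-Z- higher, for 4.36% and 4.24%. The male genes called higher were 14, and 105 without M-Z- replicate 3. This comparison shares its M-Z- embryos with the one against M+Z+.

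No test called a difference between the sexes at these genes. In M+Z+ embryos the log2 difference of females over males was -0.01 for Nap1l5, 0.04 for Herc3 and 0.03 for Inpp5f (adjusted p = 0.992, 0.963 and 0.956), in a comparison that called 0.0817% of genes. The M-Z- effect in females minus that in males was -0.28 ± 0.178 (SE) for Nap1l5 (adjusted p = 0.808), -0.06 ± 0.1002 for Herc3 (adjusted p = 0.941) and -0.02 ± 0.0703 for Inpp5f (adjusted p = 0.968). That test called 0% of genes, and a p that misses the threshold does not show that the sexes are alike.

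Expression per length puts the 3 genes on 1 scale. In transcripts-per-million (TPM, from the deposited exon lengths), M+Z+ females had 41.1 ± 2.43 of Inpp5f (SD, n = 6; range 37.7 to 44.5), 23.8 ± 2.96 of Nap1l5 (range 19.7 to 27.5) and 8.72 ± 0.778 of Herc3 (range 7.86 to 9.99). The ranges did not overlap, so the order Inpp5f, Nap1l5, Herc3 held in each M+Z+ female. In M-Z- females the TPM were 71.5 ± 3.04, 40.2 ± 6.33 and 7.64 ± 0.736 (n = 4), and the order was the same. Male M-Z- embryos had 64.6 ± 2.03, 44.5 ± 5.42 and 7.07 ± 0.550 TPM (n = 3). The Inpp5f level holds both transcripts over a length that is the union of their exons.

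Reads over strain variants separated the parental copies of Inpp5f. The paternal share of allele-assigned Inpp5f reads was 77.3 to 81.0% in M+Z+ females (median 80.6%). The M-Z+ females were at 76.8, 80.1 and 80.7% and the M-Z- females at 45.7, 45.1, 43.8 and 46.0%. In males the shares were 78.9, 77.0, 81.2 and 79.8% in M+Z+, 77.5, 78.0 and 73.6% in M-Z+ and 43.4, 43.6 and 44.3% in M-Z- embryos. Every M-Z- embryo lay under 50% and every other embryo far above it. Each share rested on 654 to 1637 reads, and its 95% Wilson interval was 4.82 to 6.64 points wide, which covers counting error only, since PCR copies were not marked and reads are not independent molecules.

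The change from M+Z+ to M-Z- was -34.8 points in females (edgeR allele test, adjusted p = 2.53e-11; exact two-sided permutation p = 0.00476) and -35.4 points in male embryos (adjusted p = 2.91e-12; exact p = 0.0286). Both exact p-values are the smallest that the group sizes allow, and they belong to 14 unadjusted exact tests of shares. A share was called at an adjusted p below 0.05 and a change of at least 10 points, and 0.309% of tested autosomal genes were called lower in females and 2.43% in males. The shares did not overlap, with M-Z- lower, for 0.68% and 5.2%. In males, 136 of the 163 share calls lay on chromosome 17, which carries Zfp57, and the median share over that chromosome was 31.7 to 36.0% in male M-Z- embryos against 45.4 to 49.9% in the other 20. Inpp5f lies on chromosome 7, where the median over genes was 49.4 to 50.7% in the 23 embryos. Chromosome 7 held 14 of the 26 female share calls and 12 of the 163 male ones.

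Against M-Z+ embryos the Inpp5f share changed by -34.0 points in female embryos (adjusted p = 5.59e-10, exact p = 0.0286) and by -32.6 points in male embryos (adjusted p = 7.53e-11). Of all tested genes 0.139% and 2.16% were called lower, and the groups did not overlap for 4.08% and 6.48%. The female value stands for 9 genes called lower, against 40 without M+Z+ replicate 1, 48 without M+Z+ replicate 2 and 90 with all 23 embryos in 1 fit. For 3 against 3 males the exact test gave 0.1, the smallest p it allows. Between M-Z+ and M+Z+ the change was -0.73 points in female embryos (adjusted p = 0.992, exact p = 0.560) and -2.84 points in male embryos (adjusted p = 0.946, exact p = 0.143), neither of them called, where 0.186% and 0.171% of genes were called. M+Z+ females and males differed by 0.716 points (exact p = 0.481).

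**Figure D3:**
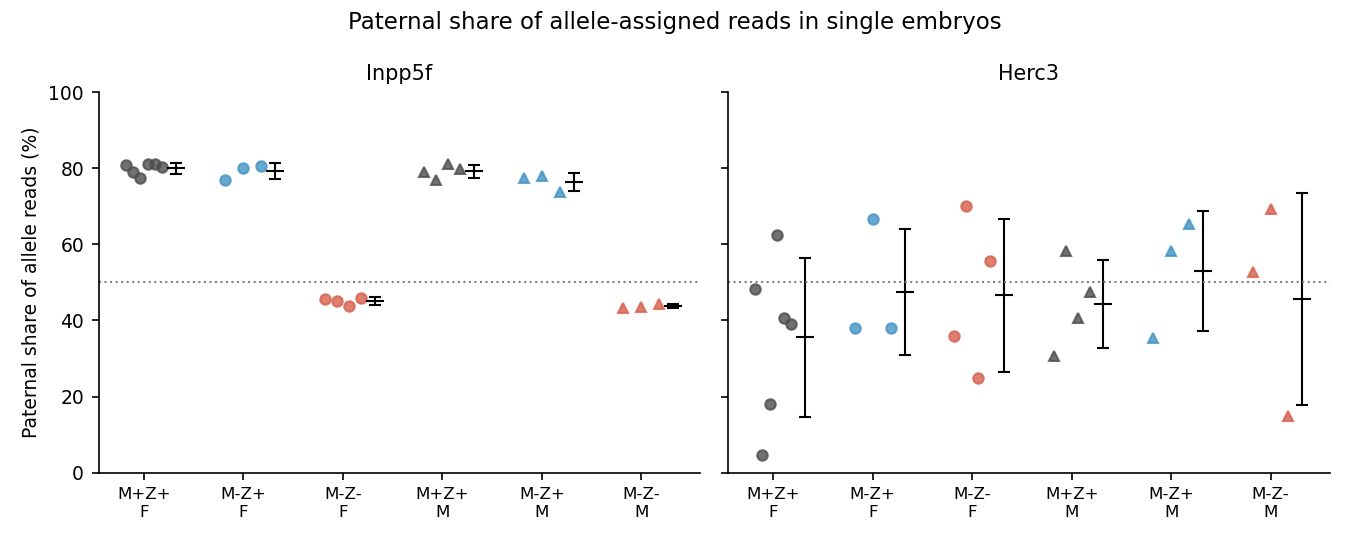
Paternal share (percent of allele-assigned reads) of Inpp5f and Herc3 in each embryo by genotype and sex, with the mean and SD and a dotted line at 50%. Inpp5f shares of M-Z- embryos sit at 43.4 to 46.0%, below all others at 73.6% and above, whereas Herc3 shares scatter from 4.76 to 70.0% on 12 to 29 reads each.

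The difference lay in the maternal reads. Maternal reads, scaled per-million allele-assigned reads, were 55.8 ± 3.04 (SD, n = 6) in M+Z+, 62.0 ± 1.27 (n = 3) in M-Z+ and 276 ± 19.5 (n = 4) in M-Z- females. In males they were 55.8 ± 4.26 (n = 4), 61.9 ± 3.26 (n = 3) and 264 ± 10.7 (n = 3). The M-Z+ females were at 60.8 to 63.3 and the M+Z+ females at 51.2 to 59.7, and the male ranges overlapped. How many genes separate these groups likewise was not counted, so the female ranges alone show no effect. The log2 fold change between M-Z+ and M+Z+ females was 0.10 ± 0.0889 (SE) and was not called (adjusted p = 0.874). The log2 fold change between M-Z- and M+Z+ was 2.25 ± 0.0730 (SE) in females, or 4.76-fold (adjusted p = 2.23e-15), and 2.22 ± 0.0996 in males, or 4.66-fold (adjusted p = 2.39e-11). Maternal output was called higher for 0.335% of tested genes in females and 2.41% in males, and did not overlap for 2.42% and 7.25%. Paternal Inpp5f reads were 222.5 ± 11.3, 237.5 ± 28.5 and 227 ± 10.8 in the same units in females and 212.5 ± 6.36, 201 ± 17.5 and 206 ± 10.2 in males, in the same order of genotypes. Their change between M-Z- and M+Z+ was -0.03 ± 0.0678 in female embryos (adjusted p = 0.940) and -0.07 in male embryos (adjusted p = 0.792), neither of them called, where 0.12% and 2.63% of genes were. The male calls of paternal output were 168 genes, and 314 without M-Z- replicate 3.

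Summed over both alleles, Inpp5f reads (per-million allele-assigned reads) went from 278 ± 10.4 to 503 ± 29.1 in females, a ratio of 1.81, and from 268 ± 3.02 to 470 ± 20.5 in males, a ratio of 1.75. Of these differences the maternal allele gave 220.4 of these units in females, where the paternal allele gave 4.53. In males the maternal allele gave 208 and the paternal allele -6.85. The maternal level in M-Z- embryos exceeded the paternal level in the same embryos, as the shares under 50% state. In M+Z+ embryos the maternal reads were not 0, and since the row holds both transcripts, the files do not tell which of them those reads came from.

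**Figure D4:**
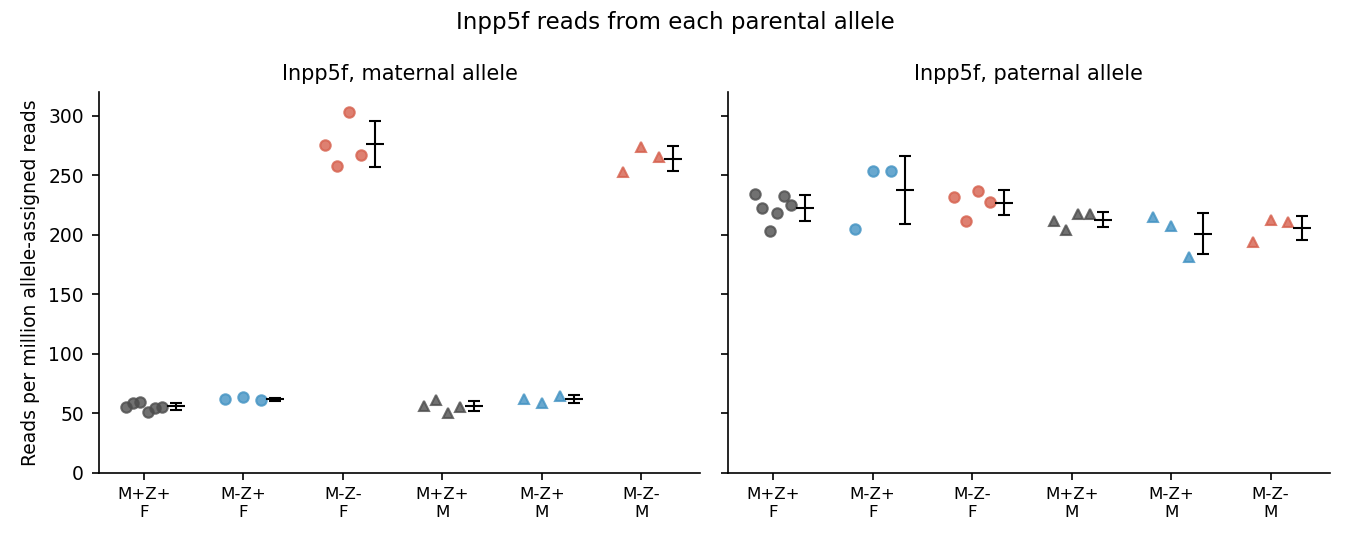
Maternal (left) and paternal (right) Inpp5f reads (per-million allele-assigned reads) in each embryo by genotype and sex, with the mean and SD. Maternal reads rise from 50.6 to 64.9 in M+Z+ and M-Z+ embryos to 253 to 303 in M-Z- embryos, whereas paternal reads stay between 181 and 254 in all groups.

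No allele could be read at Nap1l5, which had 0 allele-assigned reads in all 23 embryos, so its rise was not assigned to a parental copy. Its total counts in the same embryos were 285 to 792. Herc3 had 12 to 29 allele-assigned reads per embryo, so 1 embryo's 95% Wilson interval was 21.8 to 48.7 points wide. The paternal share of Herc3 was 35.6 ± 20.9% (SD, n = 6), 47.6 ± 16.5% (n = 3) and 46.6 ± 20.1% (n = 4) in M+Z+, M-Z+ and M-Z- females. It was 44.3 ± 11.6% (n = 4), 53.0 ± 15.7% (n = 3) and 45.6 ± 27.8% (n = 3) in males. The 3 genotypes overlapped in both sexes, the exact permutation p-values between genotypes were 0.4 to 0.971, and the female allele fit gave adjusted p-values of 0.9503 to 1. Maternal output of Herc3 changed by -0.70 ± 0.374 (SE, adjusted p = 0.583) in M-Z- females, which was not called.

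Among other genes with an intronic imprinted unit, the pattern of unit and host was not uniform. The list paired Nap1l5 with Herc3, Mcts2 with H13, Zrsr1 with Commd1, Nnat with Blcap, Peg13 with Trappc9, and added Inpp5f. Of its 11 genes, all of them tested, 4 were called higher (Nap1l5, Zrsr1, Nnat and Inpp5f) and 1 lower (Blcap) in M-Z- against M+Z+ embryos of each sex, and 6 were not called. Over all tested genes 0.285% of female and 0.264% of male tests gave a call higher, and 0.279% and 0.126% a call lower. The list's median log2 fold change was 0.20 in females and 0.07 in males, against -0.004 and 0.002 over all genes.

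Zrsr1, which encodes a splicing factor related to U2AF, changed by 0.80 ± 0.102 (SE) in female embryos (adjusted p = 2.20e-04) and by 0.66 ± 0.128 in male embryos (adjusted p = 0.0461), and its host Commd1 by -0.13 and -0.15 (adjusted p = 0.427 and 0.384). The male Zrsr1 call was lost without each of 7 single embryos (M+Z+ replicates 1 and 2, each M-Z+ embryo, and M-Z- replicates 1 and 2), with 0.54 to 0.73 over all embryos left out in turn and an adjusted p of up to 0.147. Nnat, which encodes a small membrane protein of the endoplasmic reticulum, changed by 0.83 ± 0.0556 (adjusted p = 6.58e-08) and 1.11 ± 0.125 (adjusted p = 0.000480). Its host Blcap changed by -0.92 ± 0.0486 in female embryos (adjusted p = 3.06e-09) and by -0.70 ± 0.0670 in male embryos (adjusted p = 9.41e-05). The other hosts were not called, with Herc3 at -0.20 and -0.13, H13 at -0.05 and 0.05 and Trappc9 at -0.07 and 0.06 in females and males. Peg13, a noncoding RNA, was at 0.35 ± 0.0923 (adjusted p = 0.0748) and 0.28 ± 0.0730 (adjusted p = 0.117), although its paternal share changed by -28.4 points in females and -30.3 points in males, both called. The Nnat share changed by -4.43 and -11.4 points (adjusted p = 1 and 0.815), neither of them called. It went from 79.03 ± 14.28% (SD, n = 5) to 74.6 ± 9.144% (n = 4) between M+Z+ and M-Z- females. In males it went from 81.63 ± 7.33% (n = 4) to 70.26 ± 12.01% (n = 3). Not all M+Z+ females had the more than 10 allele-assigned reads that a share needs. With this spread, the missing calls do not show that the Nnat share was unchanged. The Mcts2 share changed by 0.896 and -0.668 points (adjusted p = 0.9503 and 0.975), also not called. Zrsr1, like Nap1l5, had no share test. Mcts2 was at 0.20 and 0.07 (adjusted p = 0.349 and 0.780).

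In the windows of 2000 bases, hexamers were also counted at the units of this list. Of the 6 units, those called higher had 5 (Nap1l5), 6 (the internal Inpp5f start), 6 (Nnat) and 0 (Zrsr1), and those not called had 6 (Peg13) and 3 (Mcts2).

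No other gene of the same protein families was called between M-Z- and M+Z+ embryos. The call rate over every tested gene was 0.563% for females and 0.39% for males. At such rates, lists this short would mostly give no call, so the absence of other calls says little about the families. Of 11 nucleosome assembly protein genes tested, which include Nap1l1, Nap1l4 and Set, Nap1l5 was called in each sex and the other 10 were not (list median 0.003 in females and -0.09 in males). Nap1l1 was at 0.03 and 0.02 (adjusted p = 0.774 and 0.931). Of 5 HERC genes, 0 were called, with log2 fold changes of -0.20 to -0.02 in females and -0.30 to -0.03 in males (medians -0.11 and -0.18). Of 13 phosphoinositide phosphatases, Inpp5f was called higher and the other 12 were not (medians -0.04 and -0.01). Inppl1, which encodes SHIP2, was at 0.21 ± 0.0505 in female embryos (adjusted p = 0.0458), under the size required, and at 0.35 ± 0.0919 in male embryos (adjusted p = 0.118).

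Around Herc3, the 5 nearest tested genes on each side gave 0 calls in either sex, from Herc6, which lies 1166 kb before it, to Mmrn1, which lies 2024 kb after it. Of all tested genes 0.563% in females and 0.39% in males were called, so 10 genes would mostly give none. The median log2 fold change of these 10 genes was -0.05 in females and -0.27 in males. Abcg2, an efflux transporter gene that lies 139 kb before Herc3, changed by -0.25 ± 0.0484 (SE, adjusted p = 0.0138) in females, below the size required, and by -0.30 ± 0.120 (adjusted p = 0.238) in males. Abcg2 reads were 96.6% paternal in M+Z+ and 97.6% in M-Z- females, and 96.1% and 98.7% in males. That share did not pass the 10 points required, and from such a level it could not rise by 10 points. Paternal reads were those of the DBA variant in every embryo, so parent and strain were not separated. Among nucleosome assembly protein genes with a share test, M+Z+ female shares were 98.38% for Nap1l1 and 99.03% for Set. They were 51.35% for Tspyl3 and 50.23% for Tspyl5. Whether Abcg2 is imprinted was not tested. Fam13a, which lies 13.1 kb after Herc3, was at -0.32 in both sexes (adjusted p = 0.180 and 0.252).

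Around Inpp5f, 1 of the 10 nearest tested genes was called. Rgs10, a regulator of G protein signalling that lies 193 kb before Inpp5f, went from 12.1 to 8.05 CPM in females (log2 fold change -0.59 ± 0.110, SE, adjusted p = 0.0109) and, for male embryos, from 12.1 to 7.26 CPM (-0.71 ± 0.132, adjusted p = 0.0363). Of all tested genes 0.279% in females and 0.126% in males were called lower. Without male M-Z- replicate 3 the 21 male calls became 489, and without female M-Z- replicate 2 the 47 female calls became 16. Rgs10 had no allele test. The Rgs10 call was lost without female M-Z- replicate 2 and without each of 8 males, all but M+Z+ replicate 4 and M-Z- replicate 3 (log2 -0.67 to -0.52 and -0.83 to -0.60, adjusted p up to 0.0589 and 0.143). A replicate block also ended it, at -0.62 (adjusted p = 0.116) in females and -0.70 (adjusted p = 0.0591) in males. With only the 2 compared groups the male call was lost (-0.71, adjusted p = 0.138). Against M-Z+ embryos it was not called. Mcmbp, which lies 23 bases after the Inpp5f end and encodes a binding partner of the MCM helicase, was at 0.08 ± 0.0444 (adjusted p = 0.374) and 0.01 ± 0.0705 (adjusted p = 0.952). Bag3, which lies 64.4 kb before Inpp5f, was at 0.14 and -0.01 (adjusted p = 0.353 and 0.986). The medians of the 10 genes were -0.01 in females and 0.003 in males.

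**Figure D5:**
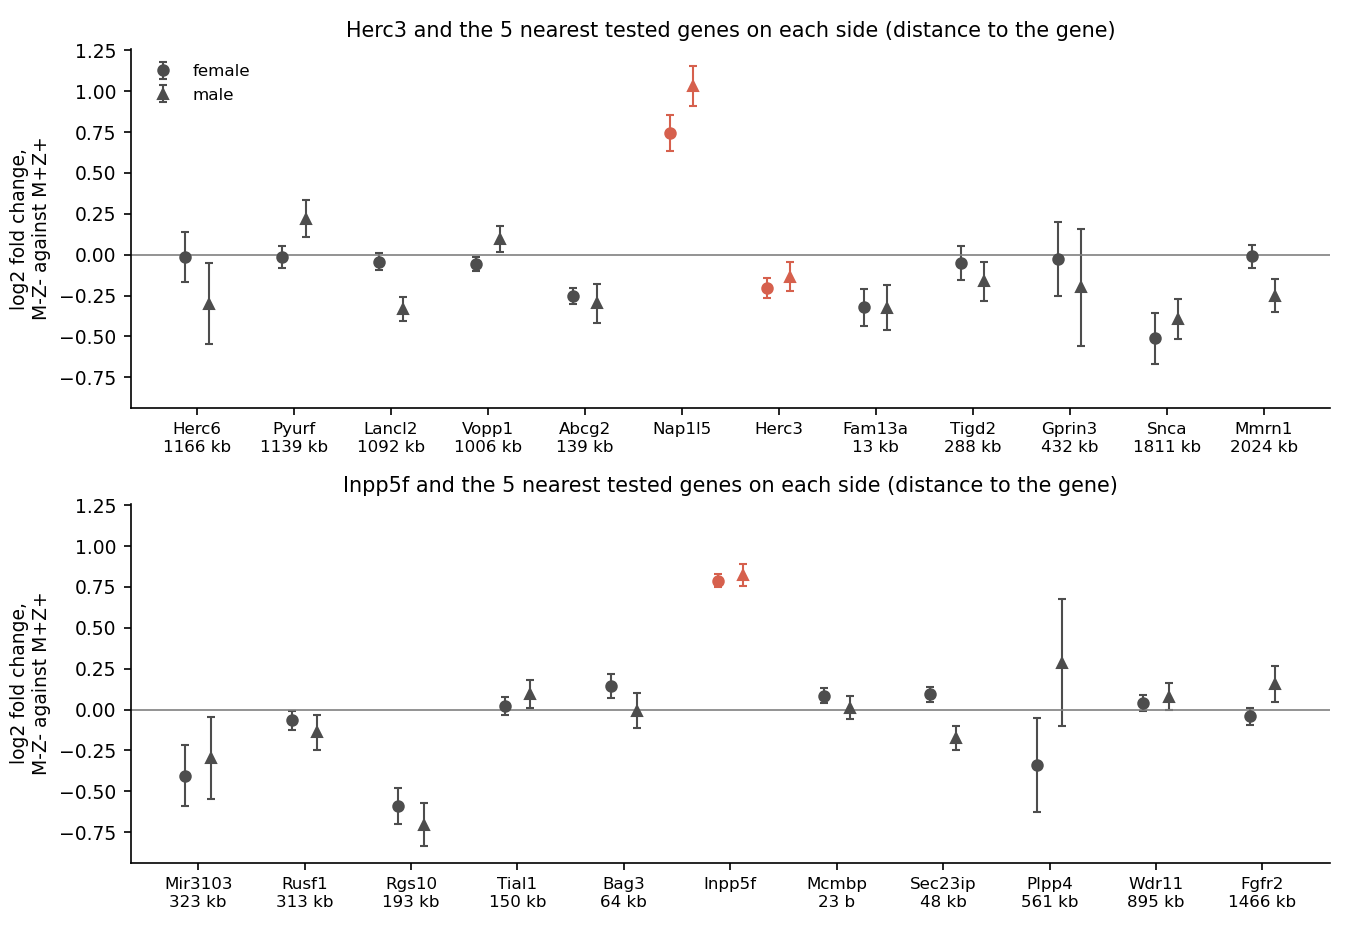
Log2 fold change between M-Z- and M+Z+ embryos (points, with SE) of the 3 genes (red) and the 5 nearest tested genes on each side of Herc3 (above) and Inpp5f (below), with the distance to the gene under each name. Nap1l5 stands at 0.75 and 1.03 and Inpp5f at 0.79 and 0.82 among neighbours between -0.71 and 0.29.

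The genes with the most similar expression were found by Pearson's r of log2(CPM + 1) over the 23 embryos, among 15502 genes whose mean reached 1 CPM. For Nap1l5 they were Rian (r = 0.925), Inpp5f (0.913) and Rhoc (0.897), and for Inpp5f they were Plagl1 (0.968), Rian (0.963) and Usp29 (0.962). Herc3 was most like Kidins220 (0.853), Ttc39b (0.816) and Tmem178b (0.811), and its r was -0.665 with Nap1l5 and -0.681 with Inpp5f. These values are a description, since the 23 points fall into the same 6 groups for every gene. After subtraction of the 6 group means, r was 0.402 between Nap1l5 and Inpp5f, -0.005 between Nap1l5 and Herc3 and 0.035 between Herc3 and Inpp5f. The genes most like each member were then Lgalsl (0.874), St3gal3 (0.841) and Col17a1 (0.837) for Nap1l5. They were Zfp354b (0.807), Fry (0.757) and Crtc3 (0.755) for Herc3, and Glra2 (0.828), Rabgap1l (0.802) and Foxe1 (0.792) for Inpp5f. The highest of 15502 values over 23 embryos can be large by selection alone, and none of these was tested.

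Because libraries came from whole embryos, fewer cells of a type and less RNA per cell cannot be told apart. Summed neuron markers (9 genes) were at 1944 to 2309 CPM in M+Z+ and 1749 to 1920 CPM in M-Z- females, and at 1869 to 2041 and 1725 to 1908 CPM in males. The sums of M-Z- females lay below those of M+Z+ females and the male sums overlapped, while Nap1l5 and Inpp5f were higher in both, and none of the 9 was called. Summed liver markers (8 genes) were at 3498 to 7578 CPM in M+Z+ and 2595 to 4274 CPM in M-Z- females, and at 4921 to 7085 and 1765 to 4692 CPM in males. In females 1 of the 8 was called lower, against 0.279% of all tested genes, and in males 0 were. The median log2 fold change of the liver markers was -0.70 in females (members from -0.88 to -0.38) and -0.80 in males (-1.14 to -0.44). Erythroid markers (7 genes) were at 11590 to 14190 CPM in M+Z+ and 14790 to 30750 CPM in M-Z- males, and at 9657 to 16260 and 10060 to 12890 CPM in females. Their median log2 fold change was 0.003 in males, with members from -0.77 to 2.68, and -0.42 in females, and none was called. The part of these differences in the values of the 3 genes was not tested.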

How the data were processed

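Raw counts of reads per gene were deposited, which the authors made by aligning uniquely mapped reads to mm9 with STAR 2.7.8a and counting by strand on UCSC gene models with featureCounts of Subread 2.0.1. In that step a read over several genes counted for each. The deposited allelic tables held raw counts of reads split by strain variant, and their strand and overlap options were not given in the sources used here. TPM were computed from these counts and the deposited exon lengths. Columns headed WT were read as M+Z+. Among the female allelic columns, 2 header names covered 4 M+Z+ embryos, which carry no number here.

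Genotypes were compared within a sex by edgeR 4.0.16 (quasi-likelihood test, TMM, filterByExpr, limma 3.58.1, R 4.3.3) with Benjamini-Hochberg adjustment over all tested genes, and the sexes in 1 fit of 23 embryos. Shares needed more than 10 allele-assigned reads. The allele test took embryo effects and autosomal genes averaging 20 reads or more. The Herc3 mean fell short of this in males, so its male shares were not fitted. Maternal and paternal outputs were scaled to the sum of both alleles. On simulated data, the expression test recovered 87.9% (females) and 67% (males) of 0.8 log2 changes between M-Z- and M+Z+, and the share test 98% and 95% of 30-point changes. Of 15-point changes the share test recovered 43% in females and 38% in males, so share changes of that size can be missed. Alternatives were DESeq2 1.42.0, other scalings, filters and fits, and single embryos left out. The rule for naming genes took the 3 members, Zfp57, fixed lists, the 5 nearest tested genes on each side and the 3 most correlated genes. The members and lists were chosen with earlier results of these data known. The sequence around the Herc3 start and counts made from it are not reported here.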

Additional observations from a re-analysis of the deposited data

How the results depend on the processing

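Of 1060 alternative values for the 3 genes, 1018 counted as unchanged. For most of the 1060 that meant the same direction and the same side of the threshold. Share changes with other read limits, pooled reads or a correction for allele bias had instead to stay within the larger group SD of the main change. The calls of Nap1l5 and Inpp5f between M-Z- and the other genotypes held without any single embryo. The main fits did not pair embryos by replicate number. Deviations from the genotype means correlated at -0.249 to 0.215 in females and -0.157 to 0.419 in males for the same number (medians -0.0592 and -0.027). For different numbers they correlated at -0.282 to 0.305 and -0.269 to 0.140 (medians 0.00499 and 0.0222). Of the embryos, 2 of 11 females and 4 of 9 males correlated best with their own number. These values do not settle whether numbers pair the male embryos. With the replicate block, M-Z- against M+Z+ gave 0.69 and 0.97 for Nap1l5 and 0.79 and 0.79 for Inpp5f in females and males, both called, and called gene counts of 4 (M-Z+) and 52 (M-Z-) in females and 41 and 128 in males. The block ended the Rgs10 calls (-0.62 and -0.70) and the male Zrsr1 call (0.54). The male Zrsr1 call was also lost with total count scaling (0.62, adjusted p = 0.0684), and with only the compared groups both the male Zrsr1 (0.65, adjusted p = 0.143) and the male Rgs10 call (-0.71, adjusted p = 0.138) were lost. With only the M+Z+ embryos numbered 4 and above, chosen after seeing the data, the male M-Z- changes of Nap1l5 (1.19) and Inpp5f (0.897) were not called, nor were the male Zfp57 (-1.14), Blcap (-0.80), Nnat (1.07), Zrsr1 (1.05) and Rgs10 (-0.73) or the female Rgs10 (-0.50) changes, the male M-Z+ changes were 0.0209 and 0.0714, of opposite sign to before, and 0 (M-Z+) and 3 (M-Z-) male genes were called. That fit rests on 1 M+Z+ male, assumed to vary like the other groups. The cause of these lost calls was not tested. The paper gives some M+Z+ embryos of each sex primed names and others unprimed names, without saying what sets them apart. Which replicate numbers bear a prime was not stated.

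The main counts of called genes were 10 and 95 in females and 8 and 65 in males (M-Z+ and M-Z- against M+Z+) and 25 for male M-Z- against M-Z+. DESeq2 called 143 for female M-Z-, 13 and 182 for males and 57 for male M-Z- against M-Z+. The 2 compared groups alone gave 3 (female M-Z+), 40 (male M-Z-) and 16 (male M-Z- against M-Z+). All 23 embryos in 1 fit gave 275 and 48 in those male comparisons, and no filter gave 99 for male M-Z-. Leaving out each embryo gave 5 to 12 and 55 to 116 in females, 0 to 54 and 41 to 899 in males (899 without male M-Z- replicate 3) and 17 to 376 for male M-Z- against M-Z+.

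Changes near 0 that had no call turned sign. With total count scaling, Inpp5f was at 0.0145 in male M-Z+ and its M-Z- interaction at 0.0107. With total allele reads, Herc3 maternal output in male M-Z- was 0.0149 and Inpp5f paternal output in female M-Z- was 0.0290. With over 20 allele reads, the Herc3 share change in male M-Z+ was 29.5 points (8.64 before), on fewer embryos. Leaving out each embryo in turn also turned changes that had no call. Inpp5f expression between M-Z+ and M+Z+ ranged from -0.000599 to 0.0646 in females and from -0.0301 to 0.0120 in males. The Inpp5f M-Z- interaction ranged from -0.0851 to 0.0332 and the Nap1l5 M-Z+ interaction from -0.0881 to 0.0419. The sex difference ranged from -0.0174 to 0.0816 for Herc3 and from -0.0692 to 0.0474 for Nap1l5. Herc3 maternal output ranged from -0.614 to 0.0290 (female M-Z+ against M+Z+), -0.601 to 0.341 (male M-Z- against M+Z+) and -0.230 to 0.712 (male M-Z- against M-Z+). Herc3 paternal output ranged from -0.247 to 0.301 (female M-Z- against M+Z+, -0.0682 without an M+Z+ female that carries no number), -0.269 to 0.392 (male M-Z- against M+Z+) and -0.557 to 0.102 (male M-Z- against M-Z+). Inpp5f paternal output ranged from -0.0321 to 0.140 (female M-Z+ against M+Z+), -0.0428 to 0.0121 (female M-Z- against M+Z+), -0.165 to 0.00686 (female M-Z- against M-Z+) and -0.00953 to 0.114 (male M-Z- against M-Z+). The Herc3 share change ranged from -8.71 to 8.63 points (female M-Z- against M-Z+) and the Inpp5f share change from -1.48 to 0.445 points (female M-Z+ against M+Z+). Herc3 shares rest on 12 to 29 allele-assigned reads per embryo.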
